A study of Mus musculus with 4 samples.

Results

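The respiratory chain was described through 109 genes of the 33696 in the count tables: 96 encoded in the nucleus and the 13 proteins encoded by mitochondrial DNA. Members were taken by symbol (Nduf, Uqcr, Sdha to Sdhd, Cox4 to Cox8, Atp5 and the mt- genes for Nd, Co, Cytb and Atp subunits, pseudogenes left out), with no measured value used. The nuclear members comprised 39 subunits of complex I and 8 of its assembly factors, 4 subunits of complex II, 8 of complex III, 20 of complex IV (with Ndufa4, which sits in that complex, and its relative Ndufa4l2) and 17 of complex V.

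The cells were CD45.2+ bone marrow cells with 1 inactivated copy of Tet2 (Tet2+/-), an enzyme that oxidises methylated DNA. Lethally irradiated mice had received them mixed 50:50 with CD45.1+ Tet2+/+ competitor marrow, and treatment ran for 7 months after 1 month of engraftment. Control mice received PBS injections and 100 mM NaCl in the drinking water, Butyrate mice PBS and 100 mM sodium butyrate, B12 mice 0.29 µg vitamin B12 and NaCl, and B12+Butyrate mice B12 and butyrate, with injections into the peritoneum. Each of the 4 groups was 1 droplet library of thawed marrow pooled from 3 mice, sorted as live CD45.2+ cells and recombined at equal parts of cKit+ and cKit- cells. Progenitor shares are therefore set by the sort, all cells compared carry the same Tet2 genotype, and differences between groups have no replicate check and no test. Intervals cover counting error only.

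The libraries held 7932 to 9688 barcodes, of which 6793 to 8752 had at least 500 genes, 1000 UMIs (unique transcript counts) and at most 10% of UMIs from mt- genes. After called doublets were removed, 29030 cells remained, with library medians of 11063 to 12107 UMIs. The limit on mt- UMIs removed barcodes unevenly: 8.89% of all barcodes in Control, 13.9% in Butyrate, 9.43% in B12 and 5.34% in B12+Butyrate exceeded it. Between 13 and 30 barcode sequences were shared by any pair of libraries. Cells fell into 34 clusters formed without the members, and 28 of these took the names of 12 classes from marker genes. The immature neutrophil markers made up 11.6% to 11.97% of UMIs in the neutrophil-like cells and still 3.55% to 3.96% in the GMP-like cells (granulocyte-monocyte progenitors), above the GMP markers themselves (2.61% to 2.86%). The other 6 clusters stayed unnamed (2035 cells). Comparisons between libraries were made in the 6 classes that had at least 50 cells in each library.

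The respiratory chain passes electrons from NADH (complex I) and succinate (complex II) through complex III and cytochrome c to oxygen at complex IV, and complex V uses the proton gradient so built to make ATP. Its subunits come from 2 genomes: nuclear genes are transcribed one by one, whereas mitochondrial DNA is read as long transcripts that are cut into single messages. Neutrophils are known for relying on glycolysis and for holding few respiring mitochondria once mature, while their progenitors, monocytes and lymphocytes respire.

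Neutrophil-like cells stood apart from every other class by how little mitochondrially encoded RNA they held. In Control, Butyrate, B12 and B12+Butyrate the 13 mt- genes made up 0.726%, 0.929%, 0.700% and 0.774% of their UMIs. In B-lineage-like cells the same shares were 2.49%, 3.22%, 2.74% and 3.02%, so the groups of 4 values did not overlap. The nuclear members gave the opposite order for these classes: 1.10% to 1.13% of UMIs in neutrophil-like cells over the 4 libraries, and 0.930% to 0.953% in B-lineage-like cells. The ratio of mitochondrial to nuclear UMIs was thus 0.634 to 0.825 in neutrophil-like cells and 2.61 to 3.47 in B-lineage-like cells. The nuclear order is that of the class sums. Neutrophil-like clusters led by later genes, given below, had lower nuclear shares than B-lineage-like cells.

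Monocyte-like and GMP-like cells had the highest mean nuclear shares, 2.03% (1.90% to 2.16% over libraries) and 1.91% (1.87% to 1.94%), beside mitochondrial shares of 2.22% to 2.87% and 2.26% to 2.75%. Those ranges overlap, so the pair was not separated by either measure over the libraries. Conventional DC-like cells (antigen-presenting dendritic cells) came next in the nuclear part at 1.67% to 1.87%, reaching the lowest GMP-like value, with 1.64% to 2.23% mitochondrial. T-like cells lay above the B-lineage in the nuclear part (1.05% to 1.11%), without overlap, and overlapped it in the mitochondrial part (2.28% to 2.94%). These are shares of a class's UMIs, in which less RNA of the members and more of other genes cannot be told apart.

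Smaller classes, some with under 50 cells in a library, are given as levels only. The 172 HSC/MPP-like cells (stem and multipotent progenitors) had 1.34% to 1.46% nuclear and 2.51% to 3.19% mitochondrial UMIs. The HSC/MPP markers made up 0.431% to 0.592% of their UMIs over the libraries. Immature neutrophil markers made up 0.027% to 1.04%, so the class was not equally clean in every library. The 192 plasmacytoid DC-like cells had 1.42% to 1.501% and 2.56% to 3.25%. The highest mean mitochondrial shares were those of the 36 eosinophil-like cells (3.64%) and the 92 basophil-like cells (3.18%).

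**Figure D1:**
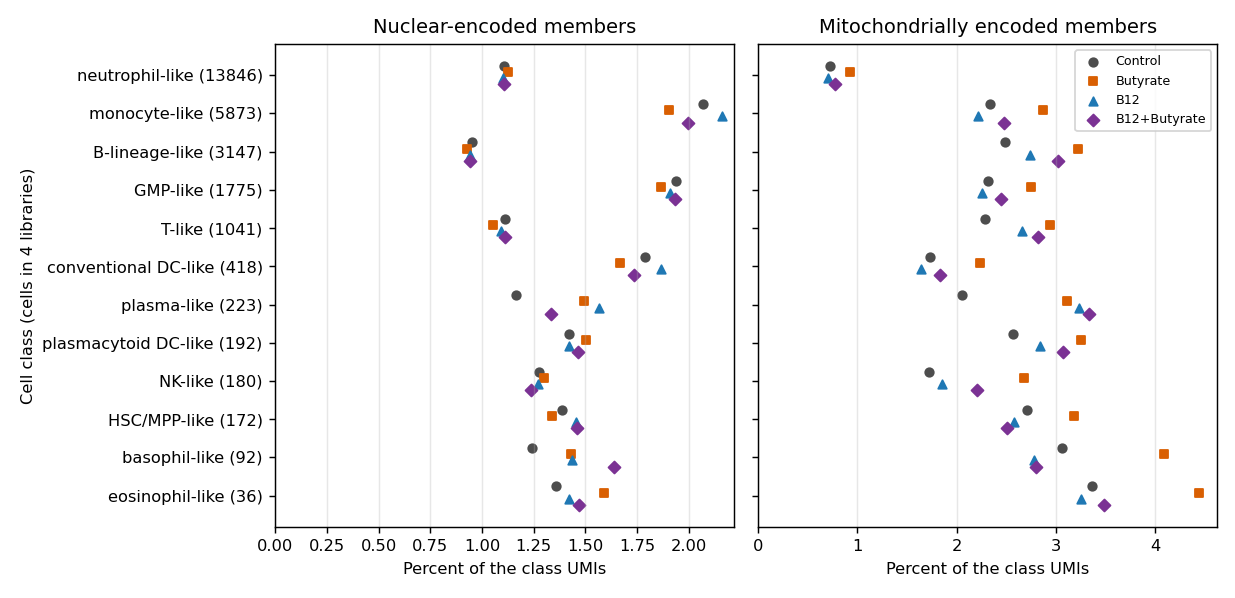
Percent of UMIs from nuclear (left) and mitochondrially encoded (right) respiratory chain genes in 12 cell classes, 1 point per library, with the number of cells in brackets. Neutrophil-like cells lie between 0.700% and 0.929% in the right panel, below all other classes, while monocyte-like and GMP-like cells have the highest means in the left panel (2.03% and 1.91%).

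Complexes I, IV and V each took a similar part of the nuclear sum in the 6 classes. Complex III gave 7.77% (neutrophil-like) to 9.47% (B-lineage-like) of it. Complex I subunits gave 28.7% (conventional DC-like) to 32.4% (neutrophil-like) of nuclear member UMIs, complex IV 27.4% (B-lineage-like) to 30.4% (neutrophil-like) and complex V 27.1% (neutrophil-like) to 31.6% (conventional DC-like). Complex II, the only complex with no mitochondrially encoded subunit, gave 1.53% in neutrophil-like and 2.35% in B-lineage-like cells. The complex I assembly factors, which help build the complex and are not part of it, gave 0.729% and 1.72% in the same classes. Neutrophil-like cells were at the low end for both of these groups.

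Of the 96 nuclear members, 87 reached 10 CPM (UMIs per 1e6 UMIs of the class) in at least 1 library of a class compared. A 3' library gives 1 end per molecule, so levels of different genes are compared as UMIs without division by length. Averaged over the 4 libraries, the leading subunits were Cox4i1 at 607 CPM and Cox8a at 533 CPM (complex IV), with Ndufa4 at 453 CPM. Complex V was led by Atp5l at 472, Atp5h at 469 and Atp5e at 418 CPM. Complex III was led by Uqcrh at 318, Uqcrb at 216 and Uqcrq at 186 CPM, and complex I by Ndufb1 at 283, Ndufb7 at 277 and Ndufb11 at 235 CPM. These leaders are small supernumerary or structural subunits.

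Nuclear catalytic and cofactor-bearing core subunits of complexes I, III and V were lower than their own complex's leaders, averaged over the 4 libraries. The highest of those named below were Ndufv2 at 86.7, Uqcrfs1 at 77.0 and Atp5b at 281 CPM. In monocyte-like cells the mean over libraries was 38.0 CPM for Ndufs1, 67.4 for Ndufs3, 107 for Ndufs7, 112 for Ndufs8, 65.9 for Ndufv1 and 113 for Ndufv2, core subunits of the arm of complex I that holds its flavin and iron-sulphur centres. In neutrophil-like cells these 6 ranged from 19.4 (Ndufs3) to 66.0 CPM (Ndufv2). Uqcrfs1, the Rieske iron-sulphur protein of complex III, stood at 142 CPM in monocyte-like and 42.9 CPM in neutrophil-like cells, and Uqcrc1 and Uqcrc2 at 106 and 80.9 against 45.8 and 48.6 CPM. Atp5b and Atp5a1, the catalytic and partner subunits of the ATP synthase head, stood at 407 and 415 CPM in monocyte-like and at 177 and 130 CPM in neutrophil-like cells.

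Complex II, which is also a citric acid cycle enzyme, did not move as a unit between classes. Sdha, the flavoprotein, was highest in B-lineage-like (96.1 CPM) and T-like cells (95.6 CPM), above monocyte-like cells (82.1 CPM). Sdhb, the iron-sulphur subunit, was highest in monocyte-like cells (131 CPM) and at 55.8 CPM in B-lineage-like cells. Sdhd, a membrane anchor, was at 109 CPM in monocyte-like, 108 CPM in GMP-like and 36.4 CPM in B-lineage-like cells, and Sdhc, the other anchor, at 71.3, 61.3 and 32.7 CPM. Sdhb, Sdhc and Sdhd were thus all highest in monocyte-like cells, and Sdha alone was highest elsewhere.

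Several paralogues of complex IV subunits that are known from other tissues were nearly unread. Cox7b2 and Ndufa4l2 had no UMI in any class, where a count of 0 allows up to 0.0708 CPM in the Control neutrophil-like cells and 1.49 CPM in the Control conventional DC-like cells. Cox8b, Cox8c, Cox4i2 and Cox7a1, and the complex I genes Ndufb11b and Ndufb4b, stayed under 10 CPM in every class compared, against class means of 343 to 700 CPM for Cox8a and 369 to 966 CPM for Cox4i1. Cox7a2 ran from 154 (B-lineage-like) to 455 CPM (GMP-like) and Cox7a2l, a supercomplex factor, from 90.1 (neutrophil-like) to 290 CPM (monocyte-like). Cox7b ran from 128 (neutrophil-like) to 345 CPM (conventional DC-like).

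Cox6a2 (ENSMUSG00000030785 in the files), the heart and muscle form of a complex IV subunit, was read in one named class almost alone. In plasmacytoid DC-like cells it reached 1297 CPM in Control, 1231 in Butyrate, 1236 in B12 and 1332 CPM in B12+Butyrate. In the 6 classes compared its mean was 0.0893 to 1.05 CPM, and the NK-like cells had 14.2 CPM from 13 UMIs. An unnamed cluster of 848 cells led by Runx2, with Flt3 among its leading genes, held 120 to 206 CPM. The nearest marker list of that cluster was plasmacytoid DC, with lymphoid-primed progenitor too close for a name. Cox6a1, the form of other tissues, stood at 146 CPM in the plasmacytoid DC-like cells and at 111 to 232 CPM in the 6 classes, so both forms were read there. Cox6a2 was on the marker list for plasmacytoid DCs but was left out of clustering and naming, which used only genes that are not members.

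Cox6b2, known from testis, was read in myeloid and stem cell classes and hardly in lymphoid ones. In GMP-like cells it stood at 36.3, 47.6, 46.8 and 53.7 CPM in Control, Butyrate, B12 and B12+Butyrate, from 409 to 697 UMIs a library. In B-lineage-like cells it had 3 to 7 UMIs a library, 0.716 to 1.85 CPM, and the groups did not overlap. HSC/MPP-like cells held 29.3 to 51.3 CPM and monocyte-like cells 19.4 to 22.7 CPM, against means of 191 to 460 CPM for Cox6b1 in the 6 classes.

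Of the genes for the c-ring of ATP synthase, which encode one mature protein, Atp5g1 varied most. Its mean was 337 CPM in GMP-like and 67.3 CPM in neutrophil-like cells, while Atp5g2 ran from 145 (neutrophil-like) to 435 CPM (conventional DC-like) and Atp5g3 from 91.1 (B-lineage-like) to 242 CPM (monocyte-like). Ndufaf4, a complex I assembly factor, had 1.02 to 1.46 CPM in neutrophil-like cells and 28.0 to 40.7 CPM in T-like cells. Cox5a (589 against 148 CPM), Ndufb3 (334 against 82.1 CPM) and Ndufv3 (232 against 60.4 CPM) were highest in GMP-like and lowest in B-lineage-like cells. At the flat end, Ndufs4 ranged only from 103 (neutrophil-like) to 156 CPM (T-like).

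**Figure D2:**
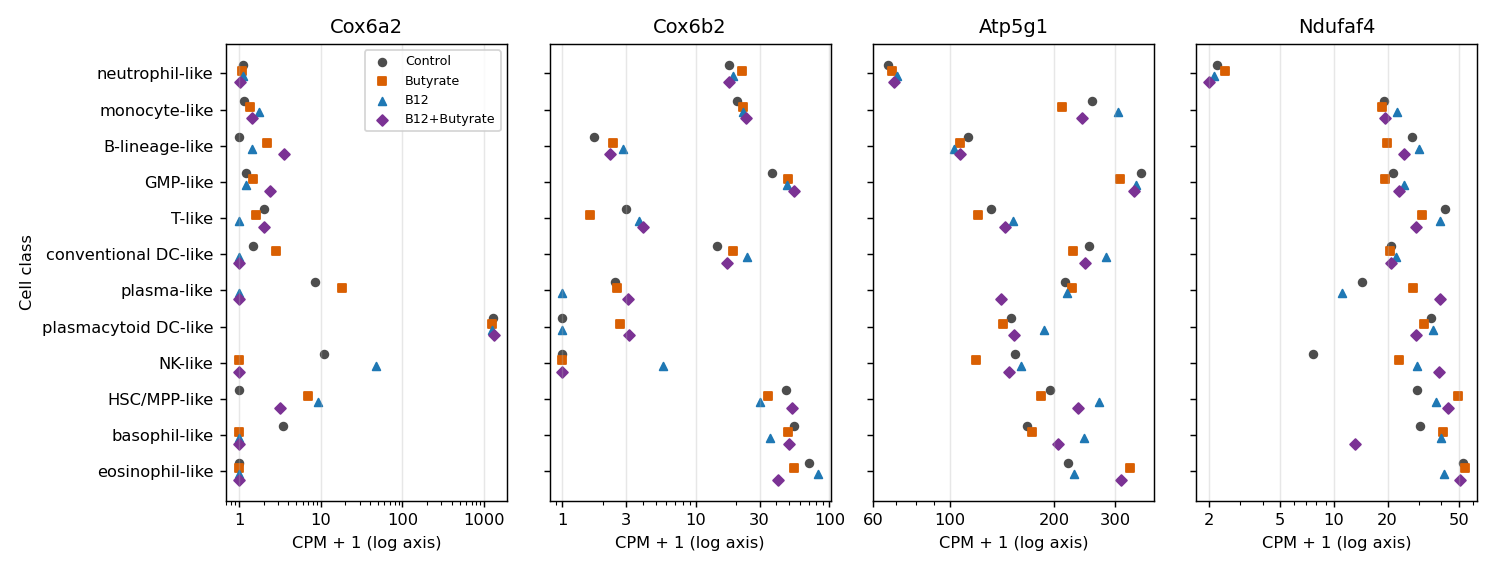
Level of Cox6a2, Cox6b2, Atp5g1 and Ndufaf4 as CPM + 1 on log axes in 12 cell classes, 1 point per library. Cox6a2 lies at 1231 CPM or more in plasmacytoid DC-like cells and far lower in the other named classes, Cox6b2 is near 1 CPM in B-lineage-like cells, and Ndufaf4 is near 1 CPM in neutrophil-like cells.

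Stretches before the start of 5 nuclear members are shown because these genes of different complexes share the letters of one known motif and because Cox6a1, Atp5g2, Sdhb and Ndufaf4 are described above. The motif is the core of the binding site of NRF1, a factor known to act on many respiratory chain genes. Capitals mark the letters GCGCATGC on either strand, with overlapping matches marked together. Coordinates are GRCm38.p6 from RefSeq, not the build of the counts, and each run reads 5′ to 3′ on the gene's strand.
Ndufa6, chr15:82354347-82354394, minus strand: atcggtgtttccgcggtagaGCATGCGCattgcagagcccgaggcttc
Ndufaf4, chr4:24897950-24897999, plus strand: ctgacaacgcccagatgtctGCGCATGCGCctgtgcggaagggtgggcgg
Sdhb, chr4:140961197-140961244, plus strand: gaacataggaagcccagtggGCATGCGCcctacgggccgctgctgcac
Cox6a1, chr5:115349091-115349140, minus strand: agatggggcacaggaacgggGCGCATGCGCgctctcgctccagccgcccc
Atp5g2, chr15:102671060-102671109, minus strand: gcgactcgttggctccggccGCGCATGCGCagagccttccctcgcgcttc

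RefSeq windows from 250 bases before to 50 after the start were matched by symbol for 78 of the 96 nuclear members (83 windows). GCGCATGC lay in 14.5% of the member windows and in 2.71% of all 32851 windows. AAGATGGC, the core of the YY1 motif, lay in 13.3% and 2.75%. CCGGAAGT, the core for ETS factors such as GABP, lay in 6.02% and 3.89%, and TATAAA, the TATA box, in 10.8% and 13.6%. No member window of these held both the NRF1 and the YY1 letters, and 23 genes held one of them. Both strands were searched, and a match describes letters, not binding.

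Within the neutrophil-like class both parts of the chain were lower in the clusters led by later granule and inflammatory genes. Clusters are called by their leading gene: H3c3 (a histone gene of dividing cells), Fcnb (early granules), Ifitm6, Mmp8 (late granules), Retnlg and Il1b. The nuclear share was 1.22% to 1.26% of UMIs over the 4 libraries in the H3c3 cluster, 1.26% to 1.30% in the Fcnb cluster, 1.09% to 1.11% in the Ifitm6 cluster, 0.755% to 0.806% in the Mmp8 cluster, 0.558% to 0.622% in the Retnlg cluster and 0.499% to 0.556% in the Il1b cluster. None of these 6 ranges overlapped, although the lowest Retnlg value (0.558%) was next to the highest Il1b value (0.556%). The Mmp8, Retnlg and Il1b ranges all lay below the nuclear shares of B-lineage-like cells given above. The mitochondrial share was 0.813% to 1.10% in the H3c3 cluster and 0.200% to 0.464% in the Il1b cluster. Depth moved with this order, from a median of 19307 UMIs per cell in the H3c3 cluster to 3564 in the Il1b cluster, and its part in the result was not tested.

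**Figure D3:**
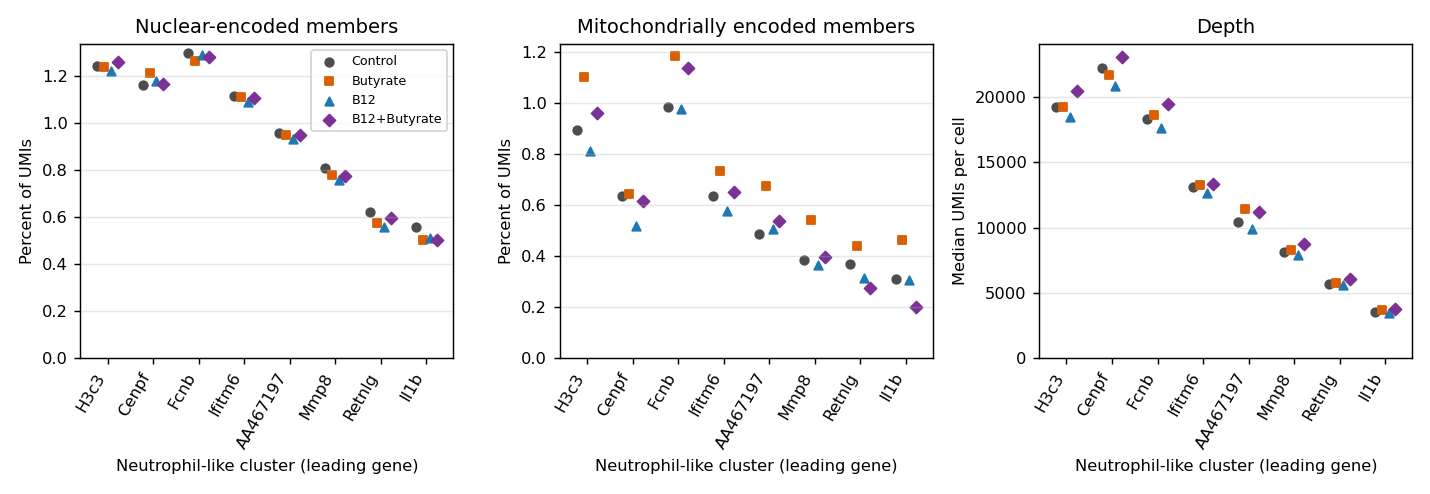
Percent of UMIs from nuclear (left) and mitochondrially encoded (middle) members and median UMIs per cell (right) in the 8 neutrophil-like clusters, named by leading gene, 1 point per library. All 3 measures are lowest at the right, and in the Il1b cluster the Butyrate library lies highest (0.464%) and B12+Butyrate lowest (0.200%) in the mitochondrial part.

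Most single genes followed the sum. Of 82 nuclear members at 10 CPM or more in either cluster of every library, 78 were lower in the Il1b than in the H3c3 cluster in all 4 libraries and 4 were higher, with a median log2 difference of -1.29. Over all 7202 genes the median was -0.31, and 52.6% were lower in all 4 libraries. The members with the lowest ratios were Ndufc2 (-3.41), Atp5g2 (-3.13), Uqcrb (-2.94), Atp5o (-2.81) and Ndufa11 (-2.61). All 12 mitochondrial genes measured were lower, between -1.77 and -0.61.

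A few subunits did not share this drop. Ndufaf7 (0.51), an assembly factor, Ndufa7 (0.42), Cox7a2l (0.29) and Atp5l (0.28) were higher in the Il1b cluster in all 4 libraries. Among the rest, Uqcrh (-0.15), Sdhb (-0.19), Ndufs1 (-0.20), Ndufb9 (-0.21), Sdhd (-0.22) and Sdha (-0.25) were the least lowered. They include 3 of the 4 complex II subunits, without Sdhc. The list was picked by these same values, and whether complex II differs from the other complexes was not tested. All these values are ratios of shares within each cluster and say nothing of RNA per cell.

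The mitochondrially encoded genes contributed unequally. mt-Atp6 gave 22.01% of the mt- UMIs of all libraries, mt-Co3 21.0%, mt-Co1 16.6%, mt-Co2 15.6% and mt-Cytb 7.69%. Subunits of complex I gave less: mt-Nd4 6.16%, mt-Nd1 5.17%, mt-Nd2 2.51%, mt-Nd5 1.61%, mt-Nd3 0.996% and mt-Nd4l 0.361%. mt-Nd6, the only one of these proteins read from the other strand of the circle, gave 0.150%, and mt-Atp8, whose frame overlaps mt-Atp6 on a shared message, 0.130%. In neutrophil-like cells mt-Co1 gave 21.3% and mt-Nd2 1.37% of mt- UMIs, against 13.8% and 3.92% in B-lineage-like cells. mt-Nd2 accordingly stood at 1117 CPM in B-lineage-like and 108 CPM in neutrophil-like cells. This was the largest ratio among the members over the 6 classes compared, once 10 CPM is added to both levels. Without that addition, and leaving aside members with no UMI in a class, the ratios of Cox6b2 and Ndufaf4, given above, are larger. So is that of Cox6a2, whose means in the 6 classes were only 0.0893 to 1.05 CPM. Cox6a2 differed more when plasmacytoid DC-like cells, which are not among the 6, are counted.

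Butyrate was compared with its control in 2 pairs that share no library with each other: Butyrate against Control, and B12+Butyrate against B12. The mitochondrial part was higher with butyrate in 6 of 6 classes in both pairs. Without B12 the log2 ratio was 0.24 (GMP-like) to 0.37 (B-lineage-like), or 1.18-fold to 1.29-fold, and with B12 it was 0.09 (T-like) to 0.16 (conventional DC-like), or 1.06-fold to 1.12-fold. Counting intervals were at most ±0.03. With each library clustered alone, 584 rather than 418 cells took the conventional DC-like name and their ratio in the first pair was -0.01. The mean over the 6 classes in the second pair, 0.14, was 0.07 with a limit of 20% mt- UMIs and 0.17 with one of 5%. At the 20% limit the second pair was higher in only 4 classes, with -0.02 in B-lineage-like and -0.04 in conventional DC-like cells. The Butyrate library is also the one with the most barcodes over the mt- limit (13.9% against 8.89% in Control), whereas B12+Butyrate has fewer than B12 (5.34% against 9.43%). The part of cell quality in the ratios was not tested, and treatment and library cannot be told apart.

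The typical cell moved with the sums. The median share of mt- UMIs per cell was 0.49% in Control and 0.68% in Butyrate for neutrophil-like cells, 1.960% and 2.39% for monocyte-like cells, 2.17% and 2.89% for B-lineage-like cells and 2.06% and 2.41% for GMP-like cells. Each of these classes was higher in Butyrate. With B12 the medians were 0.51% without and 0.55% with butyrate in neutrophil-like cells, and 2.60% and 2.76% in B-lineage-like cells. Cluster by cluster, the mitochondrial part was higher in Butyrate than in Control in 24 of 24 clusters with enough cells, and higher in B12+Butyrate than in B12 in 19 of 21. The 2 exceptions were the neutrophil-like clusters Il1b (-0.60) and Retnlg (-0.20).

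**Figure D4:**
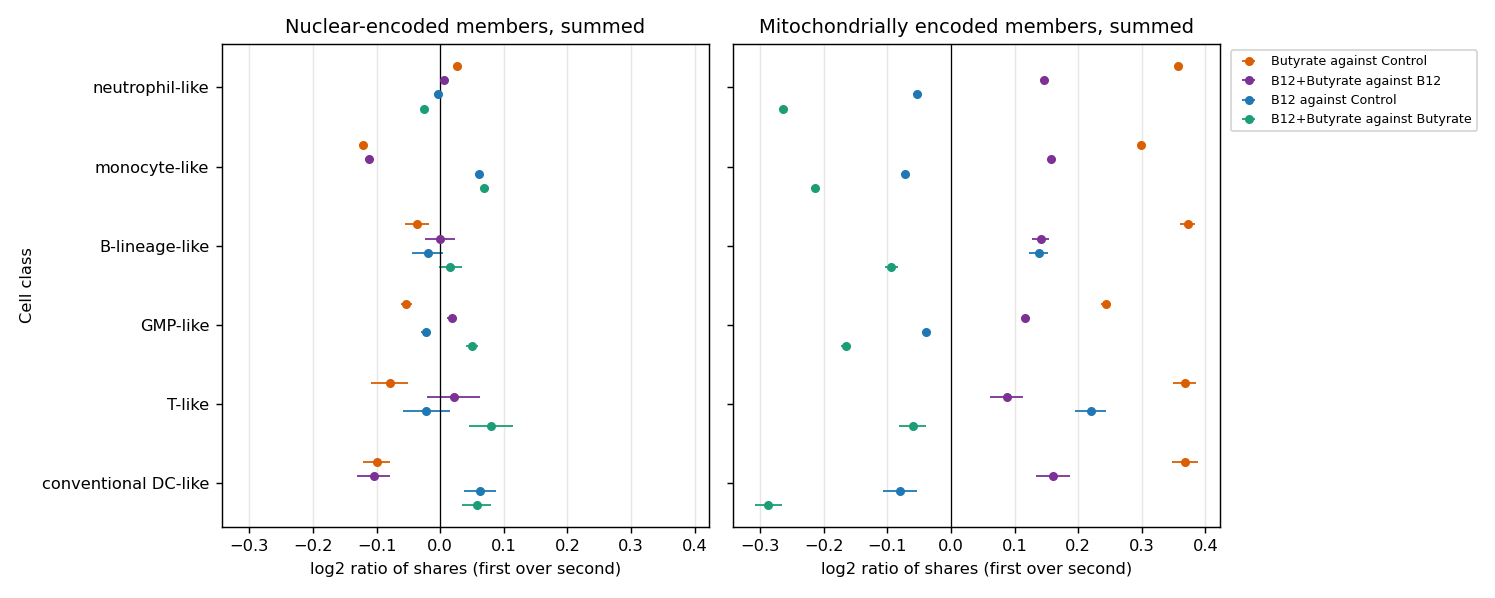
log2 ratio of the nuclear (left) and mitochondrial (right) share of UMIs in 6 cell classes for the 4 comparisons, with bars for the 95% counting interval. Both butyrate comparisons lie right of 0 for the mitochondrial part in every class, while the nuclear part stays between -0.12 and 0.08.

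Among the 13 mt- genes the butyrate difference was uneven, and the same 2 genes led in both pairs. mt-Nd3 (ENSMUSG00000064360), a small membrane subunit of complex I, stood in monocyte-like cells at 211 CPM in Control and 367 CPM in Butyrate, and at 185 CPM in B12 and 299 CPM in B12+Butyrate. In B-lineage-like cells the values were 247 and 420, then 248 and 385 CPM, and in neutrophil-like cells 40.9 and 75.2, then 35.5 and 60.7 CPM. Both butyrate libraries exceeded both libraries without butyrate in each of these classes. Its log2 ratio was 0.57 to 0.78 over the 6 classes without B12 and 0.52 to 0.74 with B12, or 1.48-fold to 1.72-fold and 1.43-fold to 1.68-fold.

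mt-Co3 (ENSMUSG00000064358), a complex IV subunit and the next protein gene to mt-Nd3 on the mitochondrial genome, followed. In GMP-like cells it stood at 4662 CPM in Control, 6416 in Butyrate, 4542 in B12 and 5451 CPM in B12+Butyrate. Its log2 ratio was 0.46 to 0.54 over the 6 classes without B12 and 0.24 to 0.31 with B12. mt-Nd4 and mt-Nd5 were at the other end, with 0.02 to 0.24 and 0.06 to 0.28 without B12, and -0.08 to 0.07 and -0.11 to 0.10 with it.

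Shares within the mitochondrial part, which do not depend on its total, showed the same split. mt-Nd3 made up 0.883% of mt- UMIs in Control, 1.20% in Butyrate, 0.791% in B12 and 1.11% in B12+Butyrate. mt-Co3 made up 19.9%, 22.6%, 20.01% and 21.7%. Both shares were higher with butyrate in 6 of 6 classes in both pairs, and those of mt-Co1, mt-Nd4 and mt-Nd5 were higher in none. The other mt- genes differed between the pairs or the classes.

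**Figure D5:**
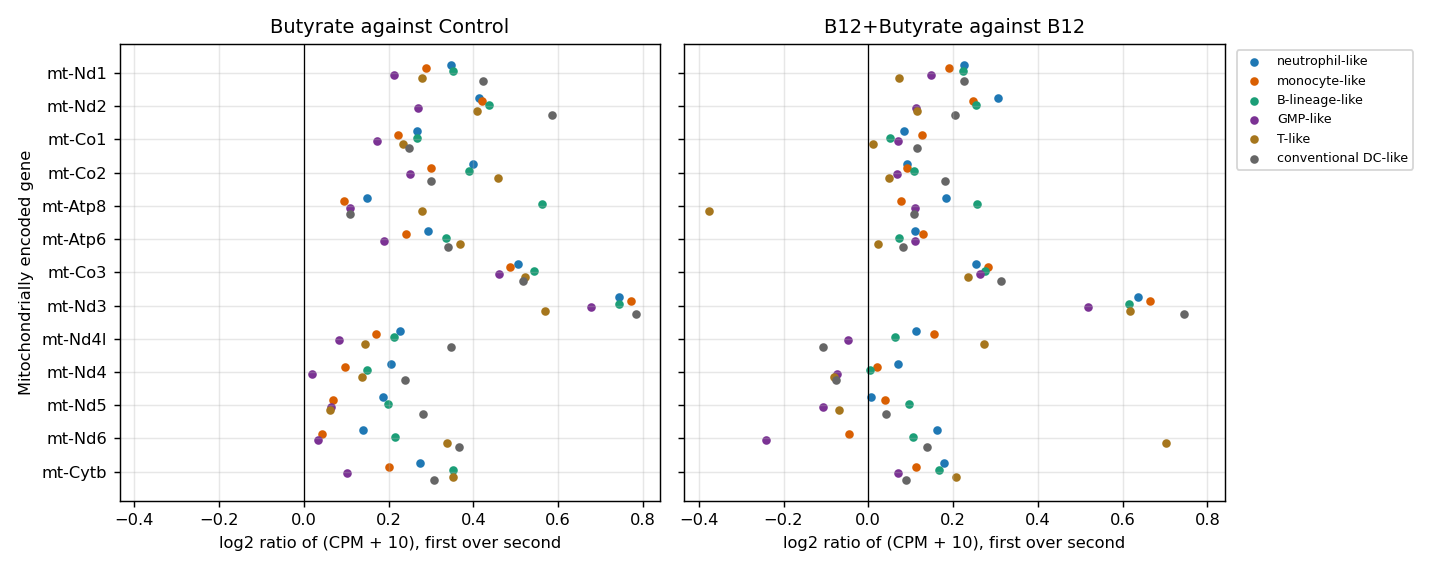
log2 ratio of CPM + 10 for the 13 mitochondrially encoded genes, in order along the mitochondrial genome, for Butyrate against Control (left) and B12+Butyrate against B12 (right), 1 point per cell class. mt-Nd3 lies farthest right, at 0.57 to 0.78 and 0.52 to 0.74, followed by mt-Co3, and the scattered points of mt-Atp8 and mt-Nd6 rest on few UMIs.

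Single genes were read against a log2 ratio of 0.32 in size in the 4 classes with the most cells. In Butyrate against Control, 5 of 13 mt- genes were past it on the higher side in neutrophil-like cells, where 0.636% of all genes at 10 CPM or more were. The counts were 3 of 13 in monocyte-like cells (2.59% of all genes), 8 of 13 in B-lineage-like cells (3.42%) and 2 of 13 in GMP-like cells (1.22%). In B12+Butyrate against B12, mt-Nd3 was the only one of them past that ratio in each of these 4 classes, where 5.15% (B-lineage-like), 1.68% (monocyte-like), 0.341% (GMP-like) and 0.315% (neutrophil-like) of all genes were past it on the higher side. None was in B12 against Control or in B12+Butyrate against Butyrate.

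Class sums of the nuclear part differed little with butyrate, except that they were lower in both pairs in monocyte-like and conventional DC-like cells. Cluster by cluster, the nuclear part was higher in Butyrate than in Control in only 3 of 24 clusters. It was higher in B12+Butyrate than in B12 in 9 of 21. A lower nuclear share in the first pair was therefore not particular to these classes. In monocyte-like cells the nuclear share was 2.07% in Control and 1.90% in Butyrate, and 2.16% in B12 and 2.00% in B12+Butyrate. Both butyrate libraries were below both others, with log2 ratios of -0.12 and -0.11 (intervals ±0.01). Of 85 nuclear members, 10 were higher and the rest lower in Butyrate than in Control (median -0.10), and 7 were higher in B12+Butyrate than in B12 (median -0.10). Medians over all genes there were 0.00 and -0.01. The share was lower with butyrate in each of the 4 monocyte-like clusters large enough to compare, led by Apoe, Vcan, Nrg1 and Ass1 (-0.13 to -0.09 and -0.12 to -0.07), and the Apoe cluster held the most monocyte-like cells in every library (38.3% to 43.5%). Conventional DC-like cells had like values, -0.10 and -0.11.

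In the other classes the nuclear ratio was 0.03 and 0.01 (neutrophil-like), -0.04 and 0.00 (B-lineage-like), -0.05 and 0.02 (GMP-like) and -0.08 and 0.02 (T-like). The first neutrophil-like value was -0.03 with the same makeup of clusters in every library. The neutrophil-like clusters ran there from -0.16 (Il1b) to 0.06 (led by Cenpf), with only the Cenpf cluster above 0. In GMP-like cells the median over all genes in the first pair was itself -0.05. Few nuclear members passed a log2 ratio of 0.32 in size. In Butyrate against Control, 2 of 85 did in monocyte-like cells (4.54% of all genes did in either direction), 0 of 82 in neutrophil-like (2.04%), 2 of 85 in B-lineage-like (6.86%) and 0 of 85 in GMP-like cells (2.74%). In B12+Butyrate against B12, 1 of 85 did in monocyte-like cells (3.32%), 0 of 82 in neutrophil-like (0.765%), 3 of 85 in B-lineage-like (12.8%) and 0 of 85 in GMP-like cells (0.86%). None of these shares was above that of all genes. Over the settings tried, the count summed over the 4 classes, 4 in each pair, ran from 2 to 10 in the first and from 1 to 5 in the second.

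The members past that ratio in monocyte-like cells were Cox5a and Ndufa4, both of complex IV, and Atp5g1. Cox5a, a structural subunit, stood at 455 CPM in Control, 352 in Butyrate, 481 in B12 and 403 CPM in B12+Butyrate, with log2 ratios of -0.36 ± 0.05 (counting interval) and -0.25. Ndufa4 stood at 596, 468, 656 and 539 CPM in the same order, and Atp5g1 at 255, 209, 304 and 239 CPM. In all 3 both butyrate libraries were below both others. That order is partly set by their choice through the ratio in these same libraries, and no share of all genes is given for it. Of 81 nuclear members measured in all 6 classes, 11 were lower in every class in Butyrate than in Control (Atp5h, Atp5j, Cox5a, Cox5b, Cox8a, Ndufa4, Ndufa8, Ndufb11, Ndufb6, Ndufv3, Uqcrq) and 2 higher (Ndufa3, Ndufb1), where 6.36% of all genes were lower and 4.62% higher in every class. In the other pair 3 were lower (Cox5a, Ndufb6, Ndufs7) and 0 higher, against 5.57% and 3.05% of all genes. Cox5a and Ndufb6 were thus lower in all 6 classes in both pairs, for which no share of all genes is given.

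In B-lineage-like cells the members past that ratio had counting intervals of ±0.23 to ±0.57. Atp5k, a dimerisation subunit of ATP synthase, was higher with butyrate in both pairs, 59.5 and 77.6 CPM without B12 and 49.4 and 66.1 CPM with it. The others were Ndufaf4, 26.3 CPM in Control and 18.8 in Butyrate, and, in B12 and B12+Butyrate, Ndufa12 (46.2 and 61.1 CPM) and Ndufaf7 (20.3 and 10.3 CPM).

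Vitamin B12 was likewise compared in 2 pairs that share no library with each other, though each shares libraries with the butyrate pairs: B12 against Control, and B12+Butyrate against Butyrate. In the first pair the mitochondrial part was higher in 2 of 6 classes, T-like (0.22) and B-lineage-like cells (0.14), and lower in the other 4 (-0.08 to -0.04). In the second it was lower in 6 of 6, from -0.29 (conventional DC-like) to -0.06 (T-like). The signs were opposite between the pairs in both lymphoid classes, a difference that was not tested. For B-lineage-like cells that rests on the clustering, since their ratio in the second pair was 0.07 with each library clustered alone. At the limit of 20% the first pair was higher in monocyte-like (0.04), GMP-like (0.03) and conventional DC-like cells (0.12) as well. The mean over the 6 classes, 0.02 and -0.18 in the 2 pairs, was 0.09 in the first with a limit of 20% mt- UMIs and -0.11 in the second with one of 5%. In the Il1b neutrophil-like cluster the mitochondrial share was 0.311% in Control, 0.304% in B12, 0.464% in Butyrate and 0.200% in B12+Butyrate, which made a log2 ratio of -1.21 in the second pair beside a nuclear ratio of 0.00.

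The nuclear part was higher with B12 in monocyte-like cells (0.06 and 0.07) and in conventional DC-like cells (0.06 and 0.06) in both pairs, and within ±0.08 in the other classes. In monocyte-like cells the first value was 0.02 with the same makeup of clusters in every library and the second 0.02 at clustering resolution 2, and the Apoe and Vcan clusters stood at 0.00 and 0.01 in the first pair and 0.05 and -0.02 in the second. In conventional DC-like cells the first was -0.04 with each library clustered alone. Medians over all genes in monocyte-like cells were 0.006 in the first pair and -0.004 in the second. In B12 against Control, 67 of 85 nuclear members were higher in monocyte-like cells, and 72 of 85 in B12+Butyrate against Butyrate. None passed a log2 ratio of 0.32 in size in monocyte-like (3.47% and 2.28% of all genes did in the 2 pairs), neutrophil-like (0.776% and 0.685%) or GMP-like cells (1.2% and 1.23%), and 1 and 0 of 85 did in B-lineage-like cells (16.4% and 5.68%). The one was Ndufaf8, an assembly factor, at 34.9 CPM in Control and 52.2 CPM in B12. Of the 81 members measured in all 6 classes, 8 were higher and 4 lower in every class in B12 than in Control, where 6.2% and 6.69% of all genes were. In B12+Butyrate against Butyrate 15 were higher and 1 lower, against 3.75% and 3.77% of all genes. Cox7b and Ndufs7 were among the higher ones in both pairs, again without a share of all genes for both at once.

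Other genes of the pathway were read from lists. The 78 genes of the mitochondrial ribosome, which translates the 13 mt- messages, gave 0.503% of UMIs in monocyte-like, 0.469% in GMP-like, 0.260% in B-lineage-like and 0.231% in neutrophil-like cells. The last 2 are in the reverse of the order of the nuclear members. In monocyte-like cells 9 of 76 were higher in Butyrate than in Control (median -0.10) and 9 of 77 in B12+Butyrate than in B12 (median -0.12), with none past a log2 ratio of 0.32. With B12, 65 of 76 (median 0.09) and 66 of 77 (median 0.08) were higher there. Medians over all genes in monocyte-like cells lay between -0.011 and 0.006 over the 4 comparisons. Of the genes that copy, transcribe and process mitochondrial DNA and RNA, 3 of 13 were higher in monocyte-like cells in Butyrate than in Control, 1 of them past that ratio (4.54% of all genes were, in either direction), and 4 of 13 in B12+Butyrate than in B12, none past it (3.32% of all genes). The electron carriers and ubiquinone enzymes (10 measured there) had 6 higher and 1 past it lower in the first pair, and 2 higher and 1 past it lower in the second. Nuclear regulators, with 5 of 7 and 3 of 8 higher, and assembly factors of complexes II to V, with 7 of 23 and 9 of 24, had none past it in either direction. Of the complex I assembly genes, 3 of 7 and 2 of 8 were higher, none past it.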

How the data were processed

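The authors deposited UMI counts per gene and barcode. The file headers name Cell Ranger 7.1.0 and the submitters' processing notes name GRCm39. The library kit reads 3' ends, per the labels' protocols. All 4 libraries were used. Doublets were called in each library from simulated pairs. Cells were scaled to 10000, the 2000 most variable genes were taken without members and mt- genes, and Leiden clustering ran on 30 components with 20 neighbours (resolution 1, leidenalg 0.10.2). Clusters were named from marker lists. The naming thresholds were chosen after the clusters were seen. Members, lists and named genes were chosen with earlier results of these data known.

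Levels are class sums over the class total. Ratios of single genes used a pseudocount of 10 CPM and genes at 10 CPM or more in either library, those of sums none. Each pool of 3 mice is 1 library, so no p-value is given. Intervals are exact Poisson or, for ratios, normal on the log scale at 95%. Named genes were all mt- genes, the 3 highest subunits of each complex, core subunits, paralogues, the members past a log2 ratio of 0.32 in size and those that differed most between classes. The alternatives were limits on barcodes, clustering, scaling, makeup and pseudocount. The ratio and its call were tested on simulated data. Protein sequences were not used here. One core subunit is not reported here.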

Additional observations from a re-analysis of the deposited data

How the results depend on the processing

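No paired analysis was possible because each group has a single library, so none could be left out. Settings were changed one at a time, and a mean over the 6 classes was counted as moved when it left the counting interval of the reported value. As reported, the mitochondrial part averaged 0.335 for Butyrate against Control, 0.135 for B12+Butyrate against B12, 0.019 for B12 against Control and -0.181 for B12+Butyrate against Butyrate on the log2 scale. The nuclear part averaged -0.061 for Butyrate against Control, -0.029 for B12+Butyrate against B12, 0.009 for B12 against Control and 0.041 for B12+Butyrate against Butyrate. Nuclear members past a log2 ratio of 0.32 in size, summed over the 4 large classes, numbered 4 for Butyrate against Control, 4 for B12+Butyrate against B12, 1 for B12 against Control and 0 for B12+Butyrate against Butyrate. The mitochondrial part stayed higher under butyrate, without and with B12, and lower in B12+Butyrate than in Butyrate in all 12 settings tried. The nuclear part kept its sign in all 12 for both butyrate comparisons, while the B12 means, near 0, changed sign in some. With a limit of 5% of UMIs from mt- genes, the mitochondrial part averaged 0.289 for Butyrate against Control, 0.172 for B12+Butyrate against B12, 0.011 for B12 against Control and -0.106 for B12+Butyrate against Butyrate. There the nuclear part averaged -0.049 for Butyrate against Control and 0.032 for B12+Butyrate against Butyrate. Then members past the log2 limit numbered 2 for B12 against Control and 1 for B12+Butyrate against Butyrate. With a limit of 20%, the mitochondrial part averaged 0.069 for B12+Butyrate against B12 and 0.086 for B12 against Control. With it the nuclear part averaged -0.081 for Butyrate against Control and -0.038 for B12+Butyrate against B12. Under it members past the log2 limit numbered 7 for Butyrate against Control, 2 for B12+Butyrate against B12, 4 for B12 against Control and 4 for B12+Butyrate against Butyrate. With lower minimums of genes and UMIs, the mitochondrial part averaged 0.311 for Butyrate against Control, 0.127 for B12+Butyrate against B12 and -0.170 for B12+Butyrate against Butyrate. Here the nuclear part averaged -0.005 for B12 against Control and 0.028 for B12+Butyrate against Butyrate. Then too members past the log2 limit numbered 3 for B12 against Control and 1 for B12+Butyrate against Butyrate. With called doublets kept, the mitochondrial part averaged 0.320 for Butyrate against Control, 0.160 for B12+Butyrate against B12, -0.007 for B12 against Control and -0.167 for B12+Butyrate against Butyrate. There the nuclear part averaged -0.044 for Butyrate against Control, -0.023 for B12 against Control and -0.005 for B12+Butyrate against Butyrate. Then members past the log2 limit numbered 1 for B12+Butyrate against B12, 0 for B12 against Control and 1 for B12+Butyrate against Butyrate. With clustering at resolution 0.5, the mitochondrial part averaged 0.340 for Butyrate against Control and 0.028 for B12 against Control. With it members past the log2 limit numbered 2 for B12 against Control. With each library clustered alone, the mitochondrial part averaged 0.280 for Butyrate against Control, 0.142 for B12+Butyrate against B12, -0.009 for B12 against Control and -0.118 for B12+Butyrate against Butyrate. Here the nuclear part averaged -0.069 for Butyrate against Control, -0.017 for B12+Butyrate against B12 and 0.049 for B12+Butyrate against Butyrate. Then too members past the log2 limit numbered 2 for Butyrate against Control, 2 for B12+Butyrate against B12, 2 for B12 against Control and 3 for B12+Butyrate against Butyrate. With the members among the variable genes, the mitochondrial part averaged 0.322 for Butyrate against Control and -0.165 for B12+Butyrate against Butyrate. With clusters weighted alike in every library, the mitochondrial part averaged 0.326 for Butyrate against Control and 0.120 for B12+Butyrate against B12. With it the nuclear part averaged -0.078 for Butyrate against Control and -0.018 for B12 against Control. Under it members past the log2 limit numbered 2 for B12 against Control. With the mean over cells in place of the sum, the mitochondrial part averaged 0.327 for Butyrate against Control, 0.078 for B12+Butyrate against B12 and -0.231 for B12+Butyrate against Butyrate. Here the nuclear part averaged -0.071 for Butyrate against Control and 0.055 for B12+Butyrate against Butyrate. Then too members past the log2 limit numbered 6 for B12 against Control and 2 for B12+Butyrate against Butyrate. With mt- UMIs left out of the total, the mitochondrial part averaged 0.342 for Butyrate against Control. There the nuclear part averaged -0.053 for Butyrate against Control. Then members past the log2 limit numbered 2 for B12 against Control. With scaling to the median gene, the mitochondrial part averaged 0.344 for Butyrate against Control, 0.143 for B12+Butyrate against B12 and -0.188 for B12+Butyrate against Butyrate. With it the nuclear part averaged -0.051 for Butyrate against Control. Under it members past the log2 limit numbered 2 for B12 against Control. With a pseudocount of 1 CPM, members past the log2 limit numbered 10 for Butyrate against Control, 4 for B12 against Control and 3 for B12+Butyrate against Butyrate. In single classes, 7 of 286 mitochondrial and 27 of 286 nuclear values had the other sign. For the mitochondrial part 2 arose with each library clustered alone (-0.011 for conventional DC-like cells in Butyrate against Control) and 5 at the 20% limit, with the others given above. The mt-Nd3 ratio stayed between 0.645 and 0.754 for Butyrate against Control and between 0.57 and 0.673 for B12+Butyrate against B12 over 13 settings. The cause was not tested. Depth limits single genes in T-like and conventional DC-like cells.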
